A study of Homo sapiens with 30 samples.

Results

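The region described here is a 2-Mb interval of chromosome 9 that carries VAV2, RXRA and COL5A1 (hg19, chr9:136000001-138000000). Its members are all restriction fragment ends listed at those positions. They number 6267 of 382657 ends of chromosome 9 at the NOTCH1 promoter viewpoint, 6991 of 429740 at the S2 viewpoint and 6978 of 428705 at the S4 viewpoint. The interval begins 1.44 Mb centromeric of the promoter viewpoint and reaches 3.44 Mb from it, and the S2 and S4 viewpoints lie 1.39 to 3.39 Mb and 1.52 to 3.52 Mb away. Contacts were measured by 4C-seq in K562, a human chronic myeloid leukaemia line that carries the BCR-ABL1 fusion. At each of the 3 viewpoints, 2 libraries were made from each of 5 genotypes: the S2 mutant, the S4 mutant, the S5 mutant, the S4-S5 mutant and WT cells. S2 and S4 are CTCF sites. The kind of mutation, whether a line is 1 clone, and where S5 lies are not stated in the labels. No group received a treatment. The 2 libraries of a group are called independent in the labels, but whether they came from different cultures is not stated. Every p-value below measures the spread between these libraries only, and that spread may be technical.

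4C-seq cuts cross-linked chromatin, ligates the pieces and sequences what became joined to 1 chosen fragment, the viewpoint. Contact frequency falls steeply with distance, and CTCF together with cohesin holds many shorter loops in place. An interval megabases away is therefore seen through few ligation events, each copied many times by PCR. In the RefSeq gene order, VAV2 is followed towards the telomere by BRD3, WDR5, RXRA and COL5A1. BRD3 reads acetylated histones. WDR5 is a subunit of histone H3K4 methyltransferase complexes. RXRA is the retinoid X receptor alpha, the partner of many nuclear receptors, and COL5A1 is an alpha chain of type V collagen. Expression was not measured here. The genes only name the interval, since no annotation of the files' build was used to place them in it.

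A 4C read can only arise at a cut site, and DpnII cuts at GATC, which reads the same on both strands. The promoters of the 3 genes that name the interval are shown because each offers exactly 1 such site, in capitals. They run from 250 bases before to 50 bases after the annotated start, taken from RefSeq on GRCh38.p14, a build other than that of the read counts. For RXRA and COL5A1, which have 2 starts listed each, the most upstream one was used. VAV2 lies on the minus strand at chr9:133992275-133992574, RXRA on the plus strand at chr9:134326205-134326504 and COL5A1 on the plus strand at chr9:134641553-134641852.
VAV2: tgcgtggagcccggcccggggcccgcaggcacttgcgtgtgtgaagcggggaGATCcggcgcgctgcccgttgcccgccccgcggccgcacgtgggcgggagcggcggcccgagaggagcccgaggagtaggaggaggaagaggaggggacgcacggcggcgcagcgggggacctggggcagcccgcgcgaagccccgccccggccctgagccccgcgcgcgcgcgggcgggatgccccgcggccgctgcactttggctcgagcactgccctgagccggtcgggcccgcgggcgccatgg
RXRA: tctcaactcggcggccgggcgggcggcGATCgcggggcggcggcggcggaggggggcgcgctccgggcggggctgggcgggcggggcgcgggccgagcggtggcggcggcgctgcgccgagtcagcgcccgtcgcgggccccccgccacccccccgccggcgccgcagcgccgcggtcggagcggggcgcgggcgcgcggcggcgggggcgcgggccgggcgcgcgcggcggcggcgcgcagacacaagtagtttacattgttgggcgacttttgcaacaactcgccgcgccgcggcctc
COL5A1: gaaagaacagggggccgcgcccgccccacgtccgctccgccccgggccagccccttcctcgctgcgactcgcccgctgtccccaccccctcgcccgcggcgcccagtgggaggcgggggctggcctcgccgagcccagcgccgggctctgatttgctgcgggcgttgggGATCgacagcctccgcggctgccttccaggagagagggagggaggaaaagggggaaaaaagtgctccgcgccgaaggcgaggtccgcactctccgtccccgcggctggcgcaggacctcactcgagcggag
The GATC begins at base 53 of the 300 bases for VAV2, at base 28 for RXRA and at base 170 for COL5A1. The window of BRD3 and that of the most upstream WDR5 start hold no GATC. Of all 35116 RefSeq promoter windows of this length, 41.7% hold at least 1.

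The libraries differed in depth and in how they spread over distance. Totals on chromosome 9 ran from 1437870 to 8008761 reads. Reads outside 5 kb of the viewpoint, the denominator used first below, ran from 76932 to 3102118, and reads in the interval from 1591 to 60368. WT libraries stood apart: reads within 500 kb of the viewpoint, here called near-cis, made up 81.6 to 89.9% of reads outside 5 kb in the mutants, against 66.7 to 73.4% in WT. Every mutant library also had a larger part of its chromosome 9 reads within 5 kb of the viewpoint than WT. Reads outside 5 kb at the promoter were 76932 of 5417204 and 81895 of 5681351 in S2 mutant cells. In WT they were 318591 of 1437870 and 525512 of 2314930. Why this part differed was not tested. Another feature is that ends with many reads in 1 genotype often had a few reads in most others. Ends at which a library held under 5% of the highest count of another genotype made up 15.2 to 95.6% of the interval ends it covered in the mutants and 14.5 to 39.8% in WT. Such ends held 0.392 to 6.98% of the interval's reads in the mutants and 0.386 to 1.74% in WT. How these reads arose was not tested, and the count of covered ends moves with them.

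The interval held a smaller share of the reads in 11 of 12 mutant comparisons. At the NOTCH1 promoter it took 2.07 and 2.03% of reads outside 5 kb in S2 mutant cells, 2.16 and 2.22% in S4 mutant cells, 1.88 and 1.79% in S5 mutant cells and 2.41 and 2.37% in S4-S5 mutant cells, against 3.46 and 3.45% in WT. At S4 the shares were 1.23 and 1.29% in S2 mutant cells, 1.48 and 1.49% in S4 mutant cells, 1.13 and 1.16% in S5 mutant cells and 1.302 and 1.33% in S4-S5 mutant cells, against 2.33 and 2.27% in WT. At both viewpoints all 8 mutant libraries lay below both WT libraries. At S2 the order was different: 2.89 and 2.80% in S2 mutant cells, 2.01 and 1.98% in S4 mutant cells, 0.989 and 1.02% in S5 mutant cells and 2.03 and 1.95% in S4-S5 mutant cells, against 2.80 and 2.75% in WT. The S2 mutant there sat level with WT, and the S5 mutant was the lowest of all.

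**Figure D1:**
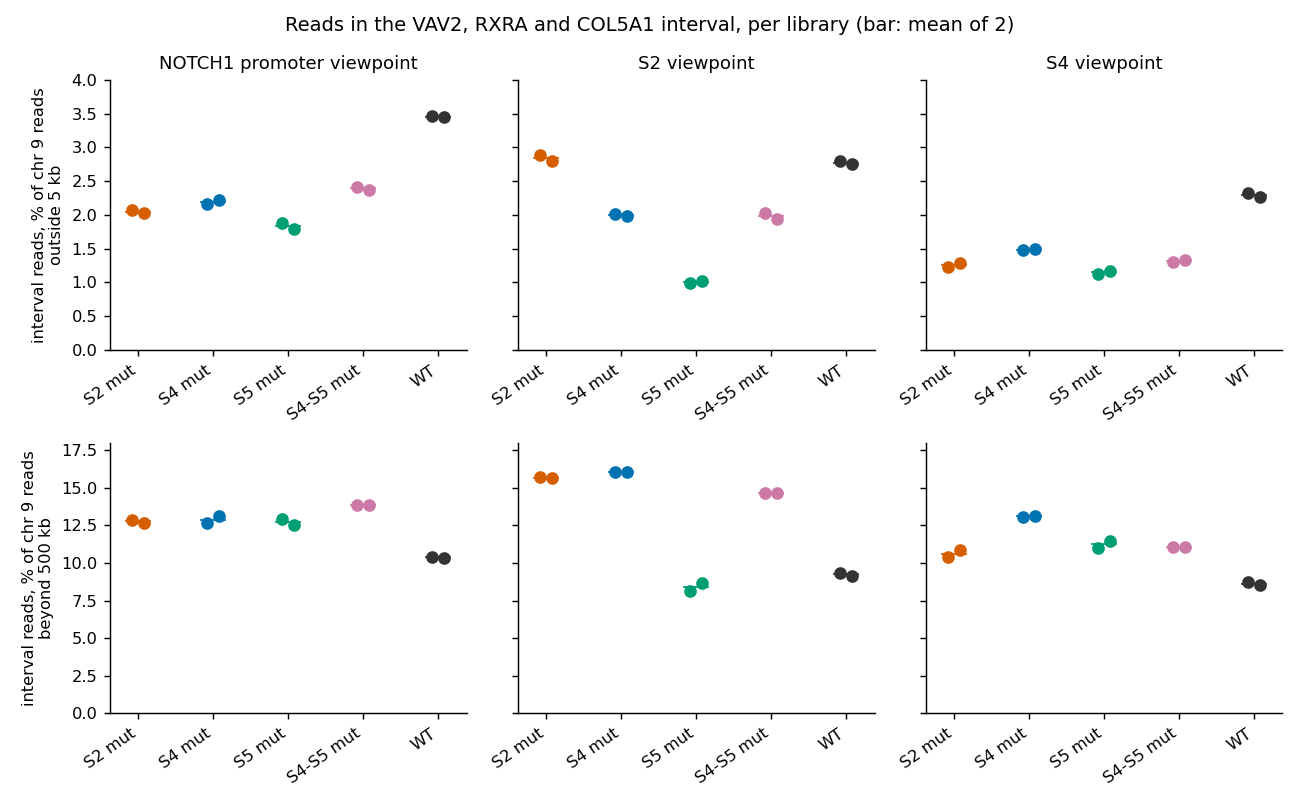
Interval reads per library at the 3 viewpoints, as a percentage of chromosome 9 reads outside 5 kb of the viewpoint (top) and beyond 500 kb of it (bottom); points are libraries and bars the mean of 2. In the top row WT is highest at the promoter and at S4, and in the bottom row WT is lowest there, while at S2 the S5 mutant is lowest in both rows.

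Tested by edgeR's quasi-likelihood test in the fit of all 2-Mb bins, the interval's log2 fold over WT at the promoter was -0.76 (SE 0.0418, adjusted p 1.08e-09) in S2 mutant cells, -0.66 (SE 0.0317, 1.33e-10) in S4 mutant cells, -0.91 (SE 0.0346, 1.89e-11) in S5 mutant cells and -0.53 (SE 0.0296, 6.49e-10) in S4-S5 mutant cells. At S4 the same test gave -0.87 (SE 0.0298) in S2 mutant cells, -0.63 (SE 0.0287) in S4 mutant cells, -1.001 (SE 0.0291) in S5 mutant cells and -0.81 (SE 0.0288) in S4-S5 mutant cells, with adjusted p of 8.22e-62 or below. At S2 it gave 0.04 (SE 0.0344, adjusted p 0.293) in S2 mutant cells, -0.47 (SE 0.0343, 6.60e-33) in S4 mutant cells, -1.46 (SE 0.0351, 1.65e-117) in S5 mutant cells and -0.48 (SE 0.0343, 7.96e-34) in S4-S5 mutant cells. A lower share was the common state of the chromosome. Of the 53 2-Mb bins tested at the promoter, 94.3, 98.1, 96.2 and 98.1% were lower in S2, S4, S5 and S4-S5 mutant cells. Of 53 bins at S2 it was 92.5, 96.2, 94.3 and 98.1%, and of 54 at S4 it was 94.4, 98.1, 90.7 and 92.6%.

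Set against the other bins, the interval was among the less reduced. The median log2 fold over all 2-Mb bins was -3.68, -2.48, -2.04 and -2.10 in S2, S4, S5 and S4-S5 mutant cells at the promoter, -6.89, -3.29, -6.74 and -3.12 at S2, and -6.40, -4.09, -4.89 and -3.44 at S4. Relative to that median the interval stood 1.13 to 2.92 higher at the promoter, 2.63 to 6.93 higher at S2 and 2.63 to 5.53 higher at S4. Folds of bins with few mutant reads depend on the prior count, the small count added in the fit. The size of these gaps is therefore uncertain. Between 1 bin (the S4-S5 mutant at S2) and 13 bins (the S5 mutant at S2) had a higher fold. The bin of equal length on its centromeric side had a lower fold than the interval in 11 of 12 comparisons. The S5 mutant at S2 was the exception, with -1.21 there and -1.46 in the interval. For the S2 mutant at S2 and at S4 the order turns when a single end is left out, as described below. The telomeric bin, which contains the viewpoints, had folds of 0.22 to 0.29 in all 12. Bins differ in distance from the viewpoint, and its part in these differences was not tested.

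**Figure D2:**
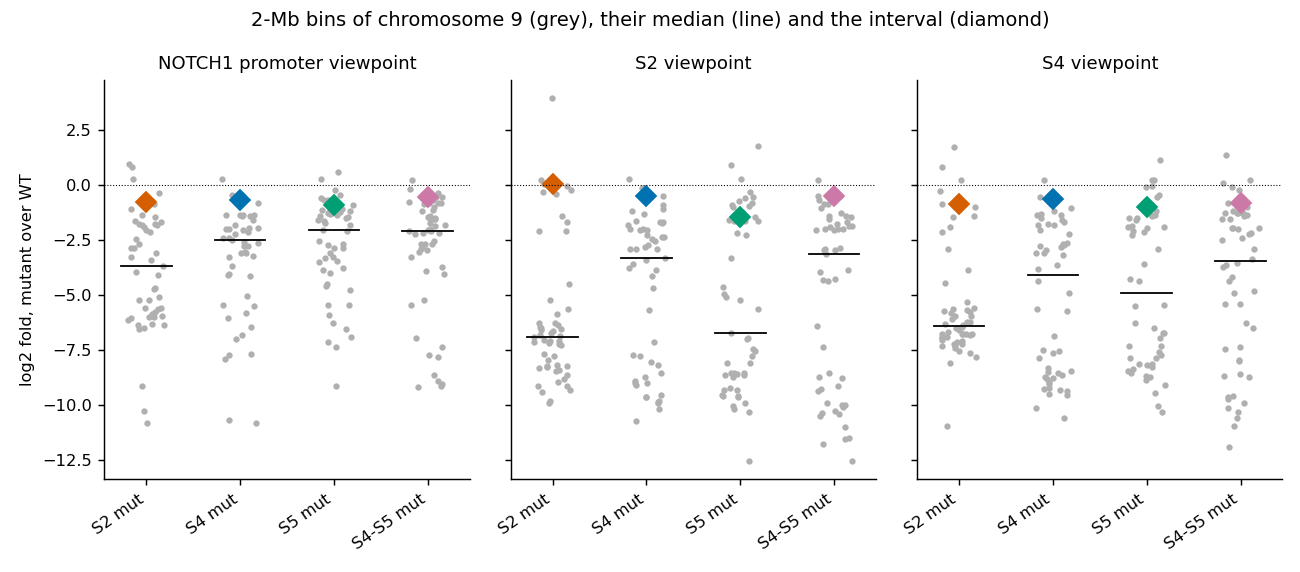
Fitted log2 fold of mutant over WT for each 2-Mb bin of chromosome 9 (grey points), the median of all bins (line) and the interval (diamond), by mutant and viewpoint. Most bins lie below 0, and the diamonds lie above the median line in all 12 comparisons.

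The direction turned with the denominator. Among far reads, those more than 500 kb from the viewpoint, the interval's share at the promoter was 12.9 and 12.7% in S2 mutant cells, 12.6 and 13.1% in S4 mutant cells, 13.0 and 12.5% in S5 mutant cells and 13.9 and 13.9% in S4-S5 mutant cells, against 10.4 and 10.3% in WT. At S4 it was 10.4 and 10.9%, 13.1 and 13.1%, 11.0 and 11.5%, and 11.1 and 11.0% in S2, S4, S5 and S4-S5 mutant cells, against 8.77 and 8.51% in WT. At S2 cells mutated at S2, at S4 or at S4 and S5 had 15.7 and 15.6%, 16.1 and 16.0%, and 14.7 and 14.7%, and the S5 mutant had 8.12 and 8.67%, against 9.33 and 9.15% in WT. Every mutant library was above both WT libraries except the 2 of the S5 mutant at S2, which were below. The place of the S2 mutant above WT at S4 rests on a single end, at 137365305. It held 3092 of 6436 and 2934 of 6191 interval reads there, and without it both libraries fall below WT.

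Scaled to far reads, the fitted log2 fold was 0.30, 0.31, 0.30 and 0.42 in S2, S4, S5 and S4-S5 mutant cells at the promoter, 0.76, 0.80, -0.14 and 0.67 at S2, and 0.30, 0.60, 0.38 and 0.36 at S4. All 12 passed the threshold in edgeR's test, and the largest adjusted p was 7.64e-05. The 0.30 of the S2 mutant at S4 rests on the single end named above. Here a higher call was the rarer one. The share of 2-Mb bins that were higher on this scale was 13.2, 17.0, 20.8 and 17.0% in the 4 mutants at the promoter. It was 13.2% in S2 mutant cells, 9.43% in S4 mutant cells and 11.3% in the S4-S5 mutant at S2, and 11.1, 7.41, 18.5 and 13.0% in the 4 mutants at S4. For the S5 mutant at S2, 77.4% of bins were lower, as the interval was. The 2 scales are tied by arithmetic. The interval's share of reads outside 5 kb is its share of far reads times the far part of those reads. The higher near-cis shares of the mutants, given above, therefore lower their shares on the scale used first. Why the near-cis shares differed was not tested.

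The mutants also differed from each other. A test of any difference among the 4 mutants in interval reads gave an adjusted p of 1.98e-06 for the promoter viewpoint, 1.38e-117 for S2 and 1.76e-28 for S4 in edgeR, where 94.3, 84.9 and 87.0% of 2-Mb bins passed. Over the libraries of all 5 genotypes, WT included, the between-genotype F of the interval share was compared with all 945 partings of 10 libraries into 5 pairs, a test that does not set the mutants apart from each other. The exact permutation p was 0.00106 at the promoter and at S4, the smallest this design allows, and 0.00529 at S2 (adjusted 0.00227, 0.00227 and 0.00567 over 15 values). The share of far reads gave exact p of 0.0138, 0.00106 and 0.00317 at the promoter, S2 and S4 (adjusted 0.0138, 0.00227 and 0.00366). With 2 libraries against 2, no single mutant could reach 0.05 in such a test.

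Few of the interval's ends carried a read, and in most comparisons fewer in the mutants than in WT. At the promoter 1.72 and 1.90% of ends were covered in S2 mutant cells, 3.02 and 3.41% in S4 mutant cells, 2.49 and 2.55% in S5 mutant cells and 4.10 and 4.66% in S4-S5 mutant cells, against 4.63 and 5.03% in WT. At S2 the mutants ranged from 2.19 to 3.10%, against 4.13 and 4.11% in WT. At S4 they ranged from 1.75 to 2.59%, against 4.00 and 4.11% in WT. All mutant libraries lay below WT at S2 and S4, and the promoter's S4-S5 mutant overlapped WT. WT reached this with fewer reads on chromosome 9 than any mutant, but its reads outside 5 kb overlapped those of the mutants. At the promoter these were 318591 and 525512 in WT, against 76932 to 743011 in the mutants. At S2 they were 713125 and 934399, against 819621 to 3102118. At S4 they were 1087466 and 1518459, against 481265 to 2950070. With every library thinned to 76932 reads outside 5 kb, covered ends were 1.60 to 3.17% in the mutants and 3.64 and 3.68% in WT at the promoter, 0.472 to 1.40% and 2.49 and 2.42% at S2, and 0.504 to 1.15% and 2.64 and 2.60% at S4. The S5 and S2 mutants were lowest at each viewpoint. Thinning made reads outside 5 kb equal but not far reads, which stayed a larger part of them in WT. The exact permutation p over genotypes was 0.00106, 0.00212 and 0.00317 at the promoter, S2 and S4 (adjusted 0.00227, 0.00353 and 0.00366). Fewer covered ends in the mutants were also the state of the chromosome. Of all ends beyond 500 kb, without thinning, 0.239 to 0.576% were covered in the mutants at the promoter, against 0.831 and 0.881% in WT. At S2 it was 0.292 to 0.396%, against 0.616 and 0.641%, and at S4 0.287 to 0.401%, against 0.650 and 0.659%.

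**Figure D3:**
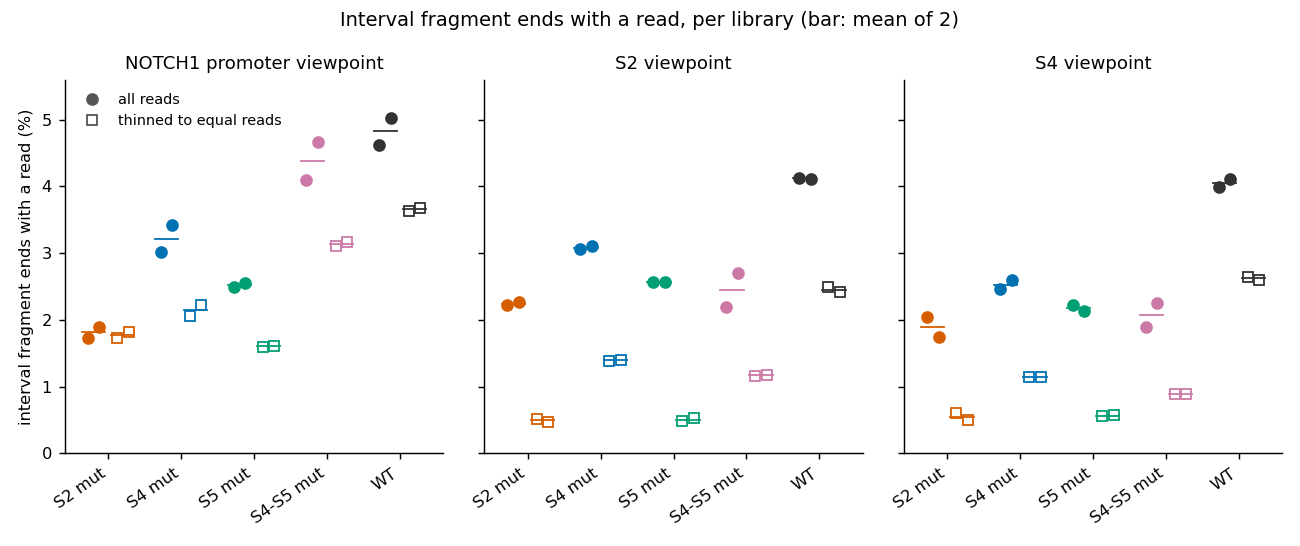
Percentage of the interval's fragment ends with a read in each library, from all reads (filled circles) and after thinning to 76932 reads (open squares); bars are the mean of 2 libraries. Thinned WT libraries sit above all thinned mutant libraries at each viewpoint.

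Without the low-share ends described above, covered ends at S2 were 0.215 and 0.1001% in S2 mutant cells, 1.37 and 1.40% in S4 mutant cells, 0.286 and 0.286% in S5 mutant cells and 1.17 and 1.19% in S4-S5 mutant cells, against 2.49 and 2.49% in WT. At S4 they were 0.201 and 0.115%, 1.204 and 1.22%, 0.487 and 0.502%, and 0.946 and 1.00% in S2, S4, S5 and S4-S5 mutant cells, against 3.04 and 3.01% in WT. At the promoter they were 0.303 and 0.383%, 1.90 and 1.99%, 1.07 and 1.13%, and 3.48 and 3.54%, against 3.96 and 4.15% in WT. At all 3 viewpoints the S2 mutant was lowest on this measure, followed by the S5 mutant, then the S4 and S4-S5 mutants, and WT was highest. The measure compares raw counts, was not adjusted for depth and was taken in the interval only. The S2 mutant's libraries had the fewest reads outside 5 kb at the promoter and at S4. They had the fewest among the mutants at S2 too, 819621 and 900948, against 713125 and 934399 in WT.

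A handful of ends carried the interval's reads in the S2 and S5 mutants. Reads were spread so that 50% of the interval's total lay in 4 ends of the S2 mutant, 27 of the S4 mutant, 10 of the S5 mutant, 43 of the S4-S5 mutant and 47 of WT at the promoter. At S2 it took 3, 21, 5, 18 and 26 ends, and at S4 it took 2, 17, 5, 15 and 38 ends, in the same order of genotypes. Ends with at least 10 reads in both libraries numbered 16, 93, 44 and 167 in S2, S4, S5 and S4-S5 mutant cells and 178 in WT at the promoter. At S2 they numbered 7, 94, 21 and 77, against 138 in WT, and at S4 they numbered 6, 80, 30 and 61, against 173 in WT. Fewer ends with 10 or more reads in both libraries were found in the mutants across the whole chromosome. Such ends among all far ends numbered 124, 736, 349 and 1289 in S2, S4, S5 and S4-S5 mutant cells and 1905 in WT at the promoter, 58, 618, 228 and 618, against 1540 in WT, at S2, and 55, 616, 284 and 590, against 1804 in WT, at S4. The interval held 12.6 to 13.0% of them in the mutants and 9.34% in WT at the promoter, 9.21 to 15.2% and 8.96% at S2, and 10.3 to 13.0% and 9.59% at S4. Its part was thus higher in each mutant than in WT, which was not tested. The interval share of the S2 mutant at S2, level with WT above, rests on 7 ends, against 138 in WT.

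**Figure D4:**
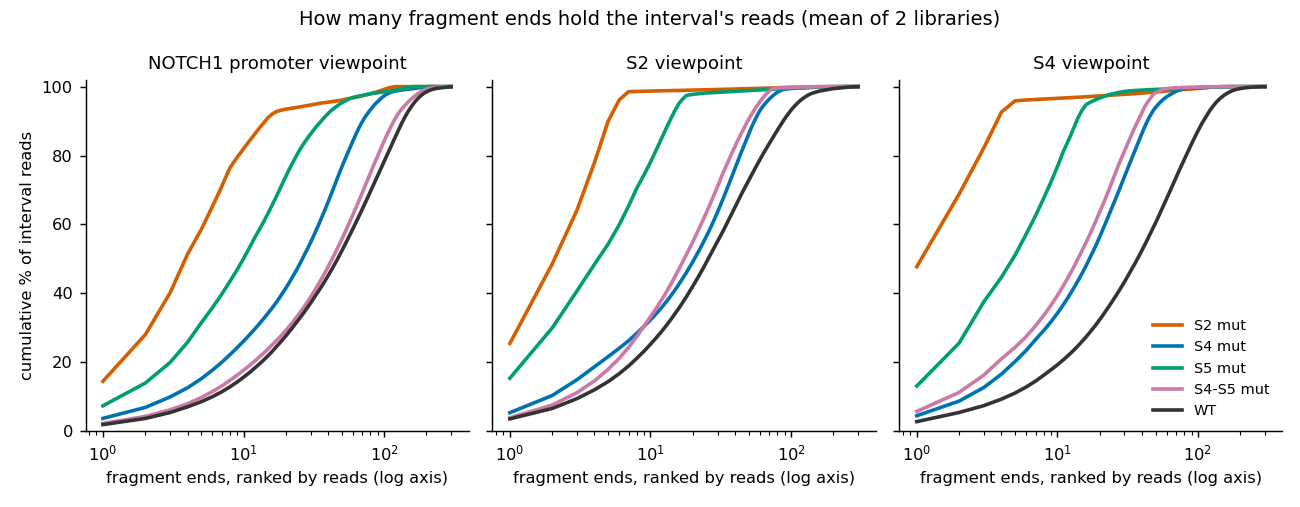
Cumulative percentage of the interval's reads against the number of fragment ends ranked by reads (log axis), mean of 2 libraries per genotype. The S2 mutant curve rises first at each viewpoint, with 50% reached by 4, 3 and 2 ends, against 47, 26 and 38 ends in WT.

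Replicates shared most of these ends and genotypes few. All p-values in this text rest on the spread between such replicates. Whether both libraries of a group came from 1 ligated template was not tested. Of ends with 10 or more reads in 1 library of a genotype, 58.3 to 100% had 10 or more in the other. Of ends with 10 or more reads in both libraries of any genotype, 457 of 477 at the promoter (95.8%), 315 of 324 at S2 (97.2%) and 319 of 334 at S4 (95.5%) reached that in 1 genotype only. Among all far ends the same share was 93.9, 94.4 and 93.1% at the 3 viewpoints in that order, so the scarcity of shared ends was a state of the chromosome. The most covered end of the interval at each viewpoint shows the pattern and 1 exception to it. At the promoter it was at position 136141222, with 231 and 193 reads in S5 mutant cells, 146 and 221 in S4-S5 mutant cells, 1 and 1 in S2 mutant cells and 0 and 2 in S4 mutant cells, against 1 and 0 in WT, so that 2 genotypes shared it. At S2 it was at 136281420, 3.10 Mb from the viewpoint, with 6113 and 6331 reads in S2 mutant cells, 19 and 24 in S4 mutant cells, 25 and 55 in S5 mutant cells and 18 and 14 in S4-S5 mutant cells, against 15 and 21 in WT. At S4 it was at 137365305, with 3092 and 2934 reads in S2 mutant cells, against 3 to 14 in the other mutants and 4 and 4 in WT. That single end made up 48.0 and 47.4% of the S2 mutant's interval reads there.

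Along the interval, WT reads formed no profile common to the viewpoints. In WT the share of reads per 100-kb bin ran from 0.0624 to 0.287% at the promoter, from 0.0230 to 0.302% at S2 and from 0.0269 to 0.306% at S4. Highest at the promoter were the bins that start at 136300001 (0.287% ± 0.00115, SD, n = 2), 137200001 (0.263% ± 0.0103) and 137000001 (0.251% ± 0.000523). At S2 they were those from 137900001 (0.302% ± 0.0172), 136700001 (0.263% ± 0.0257) and 136100001 (0.258% ± 0.0006). At S4 they were those from 136900001 (0.306% ± 0.0119), 137100001 (0.196% ± 0.00352) and 137900001 (0.173% ± 0.000525). Only the bin nearest the viewpoints, from 137900001, was among the top 3 at 2 viewpoints. Across the 20 bins, Pearson's r between viewpoints in WT was -0.18 for promoter and S2, 0.01 for promoter and S4 and 0.11 for S2 and S4, while replicates of a genotype had r of at least 0.9845; bins share a library and neighbouring fragments, so this is a description.

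**Figure D5:**
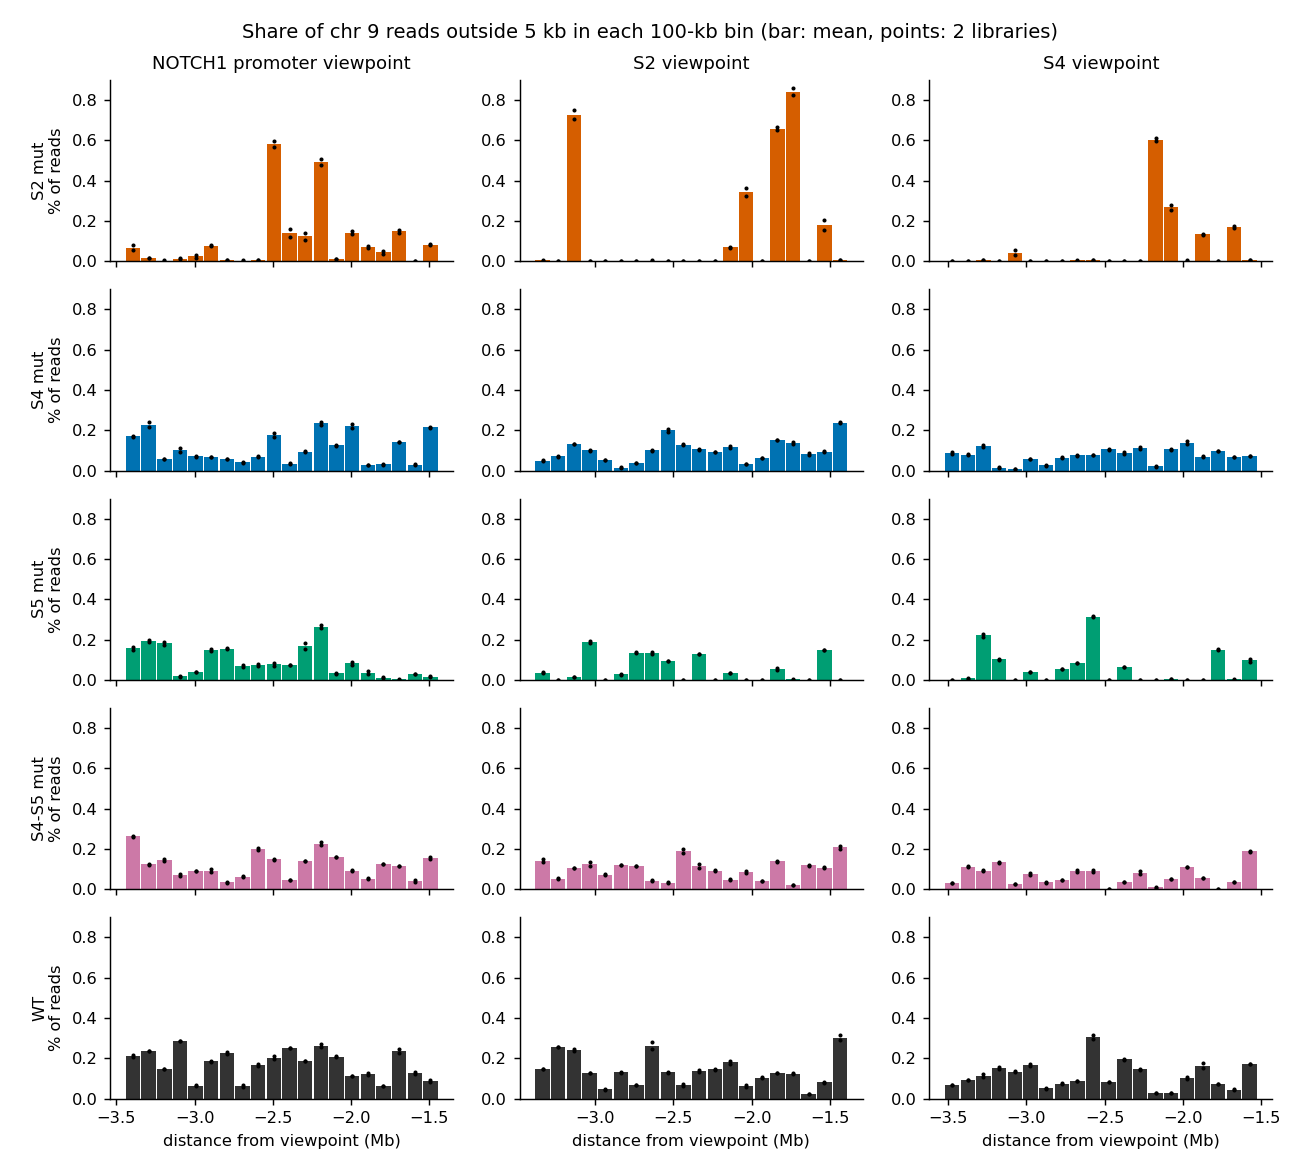
Share of chromosome 9 reads outside 5 kb in each of the 20 100-kb bins of the interval, by genotype (rows) and viewpoint (columns), against distance from the viewpoint in Mb, negative towards the centromere; bars are means and points the 2 libraries. S2 mutant reads pile up in few bins, up to 0.841% at S2, while WT bins stay at or below 0.306%.

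Nearly all of these 20 bins were called in edgeR's test of 100-kb bins, mostly lower, as over the whole chromosome. At the promoter 3 were higher and 16 lower in S2 mutant cells, against 6.95 and 80.1% of 518 bins tested. The S4 mutant had 2 and 16 (11.4 and 78.0%), the S5 mutant 1 and 16 (10.8 and 77.4%) and the S4-S5 mutant 5 and 13 (17.2 and 73.9%). At S2 the S2 mutant had 5 higher and 15 lower, against 7.95 and 80.8% of 478 bins. The S4 mutant had 5 and 13 (12.3 and 79.1%), the S5 mutant 3 and 16 (11.7 and 78.7%) and the S4-S5 mutant 6 and 10 (13.8 and 78.0%). At S4 the S2 mutant had 3 higher and 17 lower, against 6.25 and 82.3% of 496 bins. The S4 mutant had 6 and 13 (11.7 and 78.4%), the S5 mutant 2 and 16 (9.88 and 80.2%) and the S4-S5 mutant 2 and 15 (13.7 and 77.6%). The median log2 fold of the 20 bins ran from -5.42 (S2 mutant at S2) to -0.18 (S4-S5 mutant at S2), and that of all 100-kb bins from -7.84 to -2.22. Bins with few mutant reads enter these medians too, and their folds depend on the prior count.

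The bins that rose most held 1 to 8 ends with 10 or more reads in both libraries, and in 2 of 12 cases nearly all reads came from a single end. In the S2 mutant at S4 the bin from 137300001 had 3107 and 2936 reads, against 299 and 400 in WT, a log2 fold of 4.49, and 99.7% of its reads came from 1 end. In the S2 mutant at S2 the bin from 137600001 had 7025 and 7439 reads, against 877 and 1187 in WT (log2 fold 2.75), over 2 ends with 10 or more reads in both libraries, against 9 in WT. In the S2 mutant at the promoter the bin from 136900001 had 460 and 464 reads, against 671 and 1038 in WT (log2 fold 1.52), also over 2 such ends, against 13 in WT. For the S4 mutant the largest rises were 1.27 at the promoter (bin from 137900001), 1.87 at S2 (137700001) and 1.78 at S4 (137400001). They rested on 8, 6 and 3 such ends, against 4, 3 and 2 in WT. The S4-S5 mutant rose most in the same bins as the S4 mutant at S2 (2.37, with 5 ends) and S4 (0.72, with 2 ends), and by 1.00 in the bin from 137600001 at the promoter. In the S5 mutant the largest rises were 0.29 at the promoter (136200001, adjusted p 0.000372), 0.97 at S2 (136600001) and 1.06 at S4 (137700001), the last with 99.7% of reads from 1 end. With non-blind ends only, 3 of these rises turned negative: the S5 mutant's at the promoter (-0.83) and S2 (-0.25) and the S4-S5 mutant's at S4 (-0.28). Scaled to all chromosome 9 reads, the promoter's rises in the S2 (-2.45), S4 (-0.81) and S5 (-2.24) mutants and the S5 mutant's at S4 (-0.30) turned too.

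The deepest losses were bins left almost empty. In the S5 mutant the bin from 137700001 had 4 and 8 reads at the promoter, against 785 and 1188 in WT. The bin from 136100001 at S2 had 21 and 23 reads in S5 mutant cells and 7 and 12 in S2 mutant cells, against 1834 and 2411 in WT. At S4 the bin from 136400001 had 5 and 6 reads in S5 mutant cells, and that from 136500001 had 10 and 8 in S2 mutant cells, against 1474 and 2018, and 1786 and 2612, in WT. The S2 mutant had 2 and 2 reads in the promoter's bin from 137800001, against 396 and 705 in WT. None of these bins had an end with 10 reads in both mutant libraries, and the fitted fold of so few reads depends on the prior count, so none is given. In the S4 mutant the losses were smaller. The log2 fold was -2.85 in the promoter's bin from 137000001, -3.23 in the bin from 136500001 at S2 and -3.85 in that from 136400001 at S4. The S4-S5 mutant had -2.64 at the promoter (136600001) and -2.58 at S2 (136700001), while its deepest loss at S4, the bin from 137700001, was left with 5 and 11 reads, against 795 and 1082 in WT.

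No bin was higher at all 3 viewpoints in any mutant. Of the 278 bins of the chromosome tested at all 3, the share higher at each was 0.719, 1.44, 1.44 and 1.08% in S2, S4, S5 and S4-S5 mutant cells. Lower at all 3 were 11 of 20 bins of the interval in S2 mutant cells, 7 in S4 mutant cells, 9 in S5 mutant cells and 3 in S4-S5 mutant cells, beside 52.9, 51.4, 49.6 and 43.9% of the 278. The counts of the S2 and S5 mutants were near that background and those of the S4 and S4-S5 mutants below it; no test was made of the difference.

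Where the reads lay within the interval differed by genotype. The log2 ratio of reads in the telomeric 1 Mb, nearer the viewpoint, to reads in the centromeric 1 Mb was 0.69 and 0.61 in S2 mutant cells, 0.18 and 0.13 in S4 mutant cells, -0.57 and -0.68 in S5 mutant cells and -0.14 and -0.05 in the S4-S5 mutant at the promoter, against -0.11 and -0.11 in WT. At S2 it was 1.46 and 1.52, 0.32 and 0.33, -0.75 and -0.75, and -0.08 and 0.00 in S2, S4, S5 and S4-S5 mutant cells, against -0.21 and -0.20 in WT. At S4 it was 4.29 and 4.03, 0.57 and 0.47, -1.36 and -1.33, and -0.38 and -0.34, against -0.25 and -0.28 in WT. The S2 and S4 mutants were above WT and the S5 mutant below it at all 3 viewpoints, while the S4-S5 mutant was above WT at S2, below it at S4 and on both sides at the promoter. The exact permutation p over genotypes was 0.00317 at the promoter and 0.00106 at S2 and S4 (adjusted 0.00366, 0.00227 and 0.00227). Whether the libraries of 1 genotype at the 3 viewpoints came from 1 ligated template is not given, so the viewpoints are not counted as repeats. The most covered end of each viewpoint was left out in turn, after the data were seen. Without 137365305 the ratio at S4 was 3.28 and 3.03 in S2 mutant cells, against -0.25 and -0.28 in WT, so that this end carried part of it. Without 136281420 the ratio at S2 rose to 6.52 and 6.69 in S2 mutant cells, against -0.21 and -0.20 in WT. Only 190 and 181 centromeric reads were then left in those S2 mutant libraries. Without 136141222 the promoter's ratio was 0.69 and 0.61 in S2 mutant cells and -0.42 and -0.55 in S5 mutant cells.

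The drop from the interval to the 2 Mb on its centromeric side was measured as the log2 ratio of their reads. At the promoter it was 1.38 and 1.33 in S2 mutant cells, 0.99 and 1.05 in S4 mutant cells, 0.82 and 0.77 in S5 mutant cells and 0.94 and 0.95 in S4-S5 mutant cells, against 0.28 and 0.29 in WT. At S4 it was 0.55 and 0.50, 1.09 and 1.11, 0.72 and 0.83, and 0.77 and 0.76 in S2, S4, S5 and S4-S5 mutant cells, against 0.42 and 0.41 in WT. At S2 it was 0.95 and 0.92 in S2 mutant cells, 1.303 and 1.27 in S4 mutant cells, 0.26 and 0.39 in S5 mutant cells and 0.92 and 0.99 in S4-S5 mutant cells, against 0.59 and 0.56 in WT. The drop was steeper than in WT in every mutant library but those of the S5 mutant at S2, where it was shallower. The exact permutation p over genotypes was 0.00106, 0.00212 and 0.00317 at the promoter, S2 and S4 (adjusted 0.00227, 0.00353 and 0.00366). This measure was added after the data were seen and needs neither denominator used above.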

How the data were processed

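Each library's table lists fragment ends of chromosome 9 with whole read counts, which the authors deposited without normalization, per the file headers; the depositors' scaled signal columns were not used. The submitters' processing notes name hg19 and deepTools, with no role. Neither aligner nor counter is given in the sources used here. Per the labels' protocols, chromatin of 10 M cells was fixed for 10 min with 2% formaldehyde, cut with DpnII and then NlaIII or CviQI, and 200 ng of template had 16 cycles of PCR before single reads of 150 bp. Reads carry no molecular identifier, so counts are not independent ligation events.

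Counts outside 5 kb of the viewpoint were summed in 2-Mb and 100-kb bins. Bins with a mean of at least 10 reads per library were tested with edgeR 4.0.16 in R 4.3.3, all 10 libraries of a viewpoint in 1 fit, with the total outside 5 kb as library size, two-sided, Benjamini-Hochberg adjusted over all bins, threshold 0.05. DESeq2 1.42.0 served as an alternative. Exact permutation tests took the upper tail, and their 15 values include 3 added after the data were seen. Thinning used the expected number of covered ends. The fits were also run on simulated counts, drawn independently for each bin and library. Such counts hold no PCR copies and no shared template, so that run cannot judge their effect here. The interval, lists and tests were chosen with earlier results of these data known. Bins named are the 3 with the highest WT share per viewpoint and, per mutant and viewpoint, the largest fold each way among called bins whose libraries do not overlap WT. The most covered end of the interval is named per viewpoint.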

Additional observations from a re-analysis of the deposited data

Results flagged for a closer look

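The libraries of the S2 mutant lay below WT at 2 viewpoints and not at the other in the share of reads outside 5 kb. The log2 ratio of mean shares over WT was -0.76 at the promoter and -0.87 at S4, with both libraries below both WT libraries, and 0.037 at S2, with both above and no call in edgeR's test (adjusted p 0.293). At S2 the lower S2 mutant library (2.80%) and the higher WT library (2.80%) are equal at this rounding. The difference between viewpoints was not tested.

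The libraries of the S5 mutant lay on opposite sides of WT by viewpoint in the share of far reads. The log2 ratio over WT was 0.30 at the promoter and 0.38 at S4, with both libraries above WT, and -0.14 at S2, with both below. This difference was not tested either.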

How the results depend on the processing

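Each interval fold below is mutant over WT on the log2 scale, in the order S2, S4, S5 and S4-S5 mutant. Scaled to far reads, the folds turned to 0.30, 0.31, 0.30 and 0.42 at the promoter, to 0.76, 0.80 and 0.67 in the S2, S4 and S4-S5 mutants at S2, and to 0.30, 0.60, 0.38 and 0.36 at S4; the S5 mutant at S2 stayed lower (-0.14). With TMM factors they were 1.26, 0.99, 0.72 and 1.11 at the promoter, 2.56, 1.46, 0.60 and 1.596 at S2 and 1.13, 1.34, 1.09 and 0.9996 at S4. DESeq2 gave 2.05, 1.44, 0.96 and 1.29, then 6.14, 3.44, 3.13 and 3.13, then 5.04, 3.36, 3.003 and 2.66. Scaled to all chromosome 9 reads, all 12 were lower (-4.73 to -0.54), the S2 mutant at S2 included (-0.74). That fold passed the threshold with a mask of 20 kb (0.23), non-blind ends (0.36), capped ends (0.13) or the other mutants as reference (0.84).

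Counting covered ends in place of reads took most folds to near 0: -0.081, 0.075, 0.022 and 0.28 at the promoter, -0.033, 0.095, 0.021 and -0.077 at S2 and -0.28, -0.15, -0.20 and -0.25 at S4. The sign turned in 6 comparisons, the threshold was no longer passed in 4 and the call stayed in 2. Covered ends include the low-share ends. The interval's part of ends with 10 or more reads, given above as higher in the mutants, was not tested. It rests on 7 of 58 ends at S2 and 6 of 55 at S4 in the S2 mutant. Against the mean of the other 3 mutants in place of WT, the folds at the promoter were -0.056, 0.077, -0.26 and 0.24, at S2 0.84, 0.16, -1.16 and 0.15, and at S4 -0.05, 0.26, -0.23 and 0.026. The cause of these turns was not tested.

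Of 100-kb bins, 16 to 20 of 20 passed the threshold in each comparison. With covered ends 8 to 12 could be tested, and edgeR called 1 (the S5 mutant at the promoter) and 0 elsewhere, with 0 to 3 at an unadjusted p under 0.05. With 50-kb bins of the interval 27 to 39 (36, 34, 34, 27 at the promoter, 38, 34, 37, 34 at S2, 38, 39, 37, 38 at S4) passed, and with 200-kb bins 7 to 10 (8, 9, 10, 9 at the promoter, 10, 9, 10, 7 at S2, 10, 9, 9, 9 at S4), as fewer or more bins exist. The split of higher to lower moved with scaling. At the promoter the main split was 3 to 16, 2 to 16, 1 to 16 and 5 to 13; scaled to far reads it was 7 to 9, 10 to 8, 10 to 8 and 12 to 5, with TMM factors 10 to 8, 12 to 6, 11 to 6 and 13 to 4, and with DESeq2 10 to 8, 10 to 8, 11 to 7 and 12 to 5. At S2 the main split was 5 to 15, 5 to 13, 3 to 16 and 6 to 10; far reads gave 5 to 15, 16 to 3, 6 to 13 and 13 to 5, TMM 6 to 14, 18 to 1, 7 to 12 and 14 to 5, and DESeq2 6 to 10, 19 to 1, 10 to 9 and 15 to 3. At S4 the main split was 3 to 17, 6 to 13, 2 to 16 and 2 to 15; far reads gave 4 to 16, 13 to 4, 7 to 13 and 11 to 7, TMM 4 to 15, 14 to 2, 7 to 12 and 11 to 4, and DESeq2 5 to 11, 17 to 2, 9 to 9 and 13 to 4.

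Of the bins named, some turned. Scaled to all chromosome 9 reads, the bin from 136900001 (S2 mutant, promoter) became -2.45, that from 137900001 (S4 mutant, promoter) -0.81, that from 136200001 (S5 mutant, promoter) -2.24 and that from 137700001 (S5 mutant, S4) -0.30. With non-blind ends, the bins from 136200001 (S5 mutant, promoter), 136600001 (S5 mutant, S2) and 137400001 (S4-S5 mutant, S4) became -0.83, -0.25 and -0.28. With covered ends the bin from 136900001 (S2 mutant, promoter) became -0.058. Against the other mutants, the bins from 136600001 (S4-S5 mutant, promoter), 136700001 (S4-S5 mutant, S2) and 136400001 (S4 mutant, S4) became 0.021, 0.41 and 0.34.

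Leaving out any 1 library changed no call of an interval fold, moved none by more than 0.04 and moved a count of called 100-kb bins by at most 2 of 20. With the replicate number as a block, folds moved by at most 0.001 (-1.46 to 0.04) and no call of an interval fold changed, while the S4 mutant at S2 had 17 called 100-kb bins, against 18 without the block; deviations of same-numbered libraries had correlations of -0.11 to 0.11 between genotypes, so the numbers were not taken as pairs. The unfiltered fit, and low-share reads removed, an alternative chosen after seeing the data, changed no call of an interval fold. Exact permutation p-values stayed under the threshold after adjustment (0.0015 to 0.0159) under the settings run; thinning at the promoter was not run where a setting left a library with fewer reads than the thinned total.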
